A study of Rattus norvegicus with 12 samples.

Results

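The comparison of a sintered β-tricalcium phosphate (β-TCP) scaffold with an empty bone defect is described here across all genes, from 6 of the 12 RNA-seq libraries of a rat bone repair study: 3 of the β-TCP group and 3 of the control group, taken by the group in their sample labels. The animals were 8 weeks old Sprague Dawley rats with a 3 mm drill hole in the distal femur, and the tissue in the defect was collected 2 weeks after surgery. The control group received the hole and no scaffold, the β-TCP group a printed ceramic made from β-TCP powder bound with sodium alginate and a Pluronic gel and then sintered, and the other groups a gelatin methacryloyl hydrogel or a polycaprolactone (PCL) scaffold, with 3 libraries each. The methods describe newly formed tissue for the control group and scaffold with its tissue for the others, so what was dissected also differed between the groups. The methods speak of independent samples, but the labels do not say whether the libraries of a group came from separate rats, and p-values then measure only the spread between these samples, which may be technical. Levels are given in FPKM, fragments scaled to gene length and to the mapped total of the library, and differences on the log2(FPKM + 1) scale, which understates the change of genes near or below 1 FPKM.

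A drilled bone defect first fills with clot and inflammatory tissue, in which macrophages clear debris, then with cartilage or fibrous callus, and is bridged by bone that osteoclasts and osteoblasts remodel. β-TCP is a resorbable calcium phosphate. Osteoclasts, which form by fusion of macrophage-lineage cells, dissolve mineral by pumping protons through a vacuolar proton pump and digest matrix with secreted lysosomal proteases, above all cathepsin K, whereas macrophages take up particles and lipids and draw in monocytes with chemokines.

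Before the results, 2 facts of the libraries matter. β-TCP replicates 2 and 3 were nearly identical: 30 genes of the 12633 tested differed more than 2-fold between them, against 340 to 351 between either and β-TCP replicate 1 and 188 to 2609 between control libraries. Their fragment counts still differed by more than counting noise, as the mean chi-square over genes was 2.14 for this pair and 30.4 to 301 for the remaining 11 replicate pairs. They were kept as 2 libraries, which leaves unsettled whether they were separate samples, and replicate 1 is shown apart. Control replicate 3 stood apart from the other controls, with 0.954% of its FPKM in hemoglobin genes, against 8.13% and 13.1%, and with a summed FPKM of the 24 cartilage matrix genes of 16580, against 3002 and 2793. The depth recovered from the FPKM was 15260426, 15180263 and 16302309 fragments in the controls and 16989562, 16230050 and 16532605 in the β-TCP libraries. The tissue carried the markers of bone: Bglap (osteocalcin) lay at 570, 436 and 221 FPKM in the controls and 394, 252 and 253 in β-TCP, and Col1a1, the main bone collagen chain, at 7852 to 11860 FPKM in the 6 libraries.

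With the β-TCP scaffold 533 of 12633 genes were up-regulated compared with the control group and 71 were down-regulated at an adjusted p under 0.05 (limma over all 12 libraries), which is 4.22% and 0.562% of the genes tested. The methods of the study ask for more than a 2-fold difference and an unadjusted p under 0.05 (the p and fold threshold below). With these cut-offs, applied here to log2(FPKM + 1) and the limma p, 314 genes were higher (2.49%) and 130 lower (1.03%). Genes of low level can miss the fold on this scale, and with a pseudocount of 0.1 in place of 1 the counts were 429 and 178. For comparison of single libraries, the 3 β-TCP libraries lay above all 3 controls in 2267 genes (17.9%) and below them in 628 (4.97%). Of the 533 up-regulated genes 532 were of the first kind, and all 71 down-regulated genes were of the second. The median difference over all genes was 0.03.

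**Figure D1:**
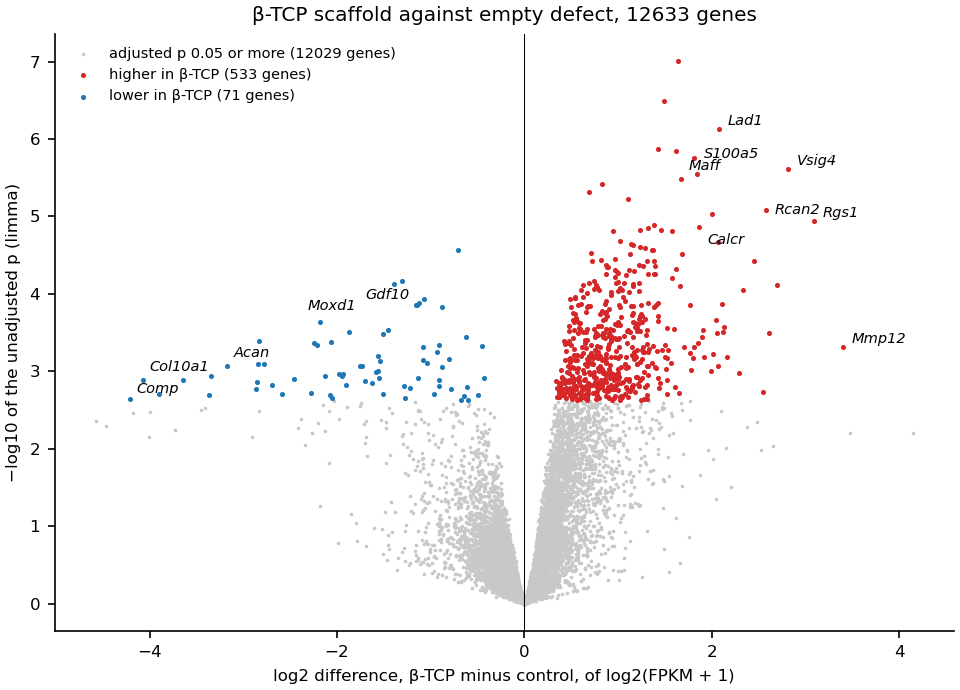
Difference between the β-TCP and control groups (x axis, log2 of FPKM + 1) against the −log10 of the unadjusted limma p (y axis) for 12633 genes, with 533 up-regulated genes in red, 71 down-regulated genes in blue at an adjusted p under 0.05 and the others in grey. Most called genes lie on the right, and the largest differences on the left belong to cartilage genes such as Comp and Col10a1.

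Most of these calls were made only with replicates 2 and 3 as separate libraries. With the pair averaged as 1 library 11 genes were up-regulated at the adjusted p and 0 down-regulated, with 1544 genes at an unadjusted p under 0.05, and leaving out replicate 2 or replicate 3 gave 11 and 0 as well. Leaving out replicate 1, which keeps both libraries of the pair, gave 466 and 59, of which 345 and 47 were among the 533 and 71. The p and fold threshold depended less on the pair: 258 genes were higher and 117 lower with it averaged, of which 249 and 117 were among those above. Without control replicate 2 the adjusted calls fell to 102 and 29, and without control replicate 3 they came to 681 and 669. All 533 and all 71 genes called at the adjusted p kept their direction in each of these fits. Since they were selected by their difference in the same libraries, this is a description and not a test.

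The 11 genes that passed with the pair averaged were Lad1, Vsig4, Rcan2, RT1-M2, S100a5, Maff, Vamp8, Rps10l1 and 3 genes without a settled name, of which LOC108352087 is annotated as obscurin-like, LOC103690063 as an ATP-binding cassette transporter of the G family and LOC100360087 as a ferritin light chain. They were singled out after their values were seen. Lad1 (ladinin, a filament-anchoring protein) lay at 0.593, 0.388 and 0.555 FPKM in the controls and at 5.99, 5.13 and 5.09 in β-TCP, a difference of 2.08 ± 0.20 (SE, adjusted p = 0.0031). S100a5, a small calcium-binding protein, lay at 0.626, 0.572 and 0.853 FPKM in the controls and at 5.11, 4.55 and 4.99 in β-TCP (1.81 ± 0.19, adjusted p = 0.0037). In these genes the 3 β-TCP libraries lay close together and replicate 1 was no lower than the others. Maff, a small MAF transcription factor, lay at 3.84, 3.26 and 4.18 FPKM in the controls and at 13.9, 13.8 and 14.6 in β-TCP (1.67 ± 0.19, adjusted p = 0.0046). Vamp8, a fusion protein of late endosomes and secretory granules, lay at 195, 178 and 184 FPKM in the controls and at 328, 340 and 326 in β-TCP (0.83 ± 0.10, adjusted p = 0.0048). The obscurin-like gene lay at 0.731, 0.574 and 0.599 FPKM in the controls and at 4.92, 3.67 and 3.80 in β-TCP (1.64 ± 0.13, adjusted p = 0.0012). Rps10l1, RT1-M2 and the ferritin gene belong to families of near-identical copies between which reads can be split, and their values are uncertain for that reason.

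Many osteoclast genes were up-regulated with the β-TCP scaffold. Of the 17 osteoclast genes tested, 10 rose at the adjusted p, 0 fell, and 16 had all β-TCP libraries above all controls, with a median difference of 0.89. Their summed FPKM was 5975, 4755 and 6215 in the controls and 11570, 11170 and 11160 in β-TCP. The groups did not overlap in this sum, and replicate 1 was the highest. The adjusted calls were fragile: 0 with the pair averaged or without replicate 2 or 3, 3 without replicate 1 and 1 without control replicate 2, whereas the p and fold threshold gave 7 genes in the fit of all libraries and 8 with the pair averaged. In bulk RNA more cells of a type and more RNA per cell cannot be told apart.

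Calcr, the calcitonin receptor that marks mature osteoclasts, lay at 8.61, 7.05 and 6.08 FPKM in the controls and at 33.8, 26.4 and 26.5 in β-TCP, a difference of 1.86 ± 0.24 (adjusted p = 0.0090). Ctsk (cathepsin K) lay at 3118, 2157 and 3580 FPKM in the controls and at 6920, 6883 and 6866 in β-TCP (1.25 ± 0.29, adjusted p = 0.038). The 3 β-TCP levels of Ctsk lay close together, and each was above the highest control. Siglec15, a sialic acid receptor needed for osteoclast fusion, lay at 35.2, 24.1 and 24.6 FPKM in the controls and at 87.1, 61.8 and 63.3 in β-TCP (1.31 ± 0.32, adjusted p = 0.046, and 0.055 without control replicate 3). Csf1r, the receptor for the macrophage growth factor CSF1 that osteoclast precursors need, lay at 127 to 197 FPKM in the controls and at 287 to 304 in β-TCP (0.96 ± 0.24, adjusted p = 0.048, and 0.060 without control replicate 3). Acp5, the tartrate-resistant acid phosphatase used to stain osteoclasts, lay at 1011, 794 and 1109 FPKM in the controls and at 1534, 1503 and 1525 in β-TCP, which did not pass (0.66 ± 0.28, adjusted p = 0.24) although the groups did not overlap. Car2 (carbonic anhydrase II), which red cells also hold, was the member with the smallest difference and overlapped between the groups.

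Rcan2, a regulator of the phosphatase calcineurin through which RANKL signals reach NFATc1 in osteoclast precursors, showed the largest change of the calcineurin, NFAT and RCAN list. It lay at 13.7, 14.4 and 6.84 FPKM in the controls and at 91.6, 62.7 and 63.7 in β-TCP (2.58 ± 0.32, adjusted p = 0.0079). Its paralog Rcan1, itself a target of NFAT, lay at 28.5, 22.1 and 36.9 FPKM in the controls and at 76.8, 63.1 and 68.6 in β-TCP (1.25 ± 0.23, adjusted p = 0.020). In both genes replicate 1 was the highest library. These were the only 2 of the 13 members that passed, and the median of the list was -0.02. Nfatc1 itself, the master transcription factor of osteoclasts, lay at 37.1, 28.9 and 30.9 FPKM in the controls and at 63.5, 49.5 and 51.2 in β-TCP and did not pass (0.74 ± 0.20, adjusted p = 0.065). Of 11 coupling factors between osteoclasts and osteoblasts tested, Csf1r was the 1 that rose and 0 fell, and the level of Tnfsf11 (RANKL) was too low to be tested.

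Among further up-regulated genes, Mt3 (a metal-binding metallothionein) lay at 222, 171 and 230 FPKM in the controls and at 926, 804 and 842 in β-TCP (2.05 ± 0.37, adjusted p = 0.020). Plau (urokinase, which activates plasminogen) lay at 24.4, 20.5 and 17.3 FPKM in the controls and at 75.6, 95.0 and 98.5 in β-TCP (2.07 ± 0.29, adjusted p = 0.011). Replicate 1 was highest for Mt3 and lowest for Plau among the β-TCP libraries, and neither gene overlapped between the groups.

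The vacuolar proton pump rose almost as a whole. Of its 18 subunits and accessory proteins 15 were up-regulated at the adjusted p, 0 were down-regulated, and all 18 differences were above 0, with a median of 0.94. The median was 0.96 in replicate 1 and 0.92 in replicates 2 and 3. Atp6v1b2, a catalytic-head subunit, lay at 187, 154 and 147 FPKM in the controls and at 458, 407 and 407 in β-TCP (1.38 ± 0.20, adjusted p = 0.012). Atp6v0d2, the membrane-sector subunit found in osteoclasts, lay at 96.6, 85.1 and 98.5 FPKM in the controls and at 239, 220 and 225 in β-TCP (1.28 ± 0.26, adjusted p = 0.027). Each β-TCP library was more than 2-fold above each control for both genes. The accessory protein Atp6ap2 lay at 119 to 133 FPKM in the controls and at 304 to 323 in β-TCP (1.31 ± 0.19, adjusted p = 0.012), and the subunit Atp6v1h at 44.4 to 52.6 and 93.7 to 107 FPKM (1.05 ± 0.18, adjusted p = 0.015). The 3 members that did not pass were Atp6v0a1, Atp6v0a2 and Atp6v0d1, other forms of the membrane-sector subunits. With the pair averaged or without replicate 2 or 3, 0 subunits passed the adjusted p, without control replicate 2 it was 5, and with the pair averaged 7 passed the p and fold threshold, against 6 in the fit of all libraries. Atp6v0d2 and Tcirg1 stand in the osteoclast list as well, so the counts of the 2 lists are not independent.

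Lysosomal genes rose in part. Of 15 lysosomal proteases 8 rose and 0 fell, with a median of 0.92, and of 33 lysosomal hydrolases and membrane proteins 12 rose and 0 fell, with a median of 0.54. No gene of either list passed the adjusted p with the pair averaged, and without control replicate 2 it was 1 protease and 3 hydrolases. Lgmn (legumain, an asparagine-specific protease) lay at 138, 113 and 124 FPKM in the controls and at 232, 485 and 488 in β-TCP (1.60 ± 0.30, adjusted p = 0.021). Ctsd (cathepsin D) lay at 329, 266 and 395 FPKM in the controls and at 530, 862 and 873 in β-TCP (1.17 ± 0.24, adjusted p = 0.027). Unlike cathepsin K, these proteases were lower in replicate 1 than in the pair, as were 13 of the 15 members and 34.0% of all genes tested. Npc2 (cholesterol export from lysosomes) lay at 150 to 184 FPKM in the controls and at 353 to 510 in β-TCP (1.39 ± 0.21, adjusted p = 0.013). Lipa, the lysosomal acid lipase, lay at 31.9, 25.8 and 19.7 FPKM in the controls and at 44.8, 88.1 and 84.6 in β-TCP (1.42 ± 0.29, adjusted p = 0.027).

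Many macrophage genes were up-regulated too, but unequally among the β-TCP libraries. Of 18 macrophage genes 10 rose and 0 fell at the adjusted p, with a median of 1.34, and 13 passed the p and fold threshold, which was also 13 with the pair averaged and 9 higher and 1 lower without control replicate 3. The median was 0.84 in replicate 1 and 1.61 in the pair, and 15 members were lower in replicate 1 than in both others, against 34.0% of all genes tested. At the adjusted p, 1 gene (Vsig4) passed with the pair averaged and 1 without control replicate 2. Their summed FPKM was 4107, 2978 and 1870 in the controls and 4173, 9229 and 9313 in β-TCP. Replicate 1 thus exceeded the highest control only slightly in this sum, and the pair exceeded it more than 2-fold.

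Mmp12, the macrophage metalloelastase, had the largest increase of the genes named by rule that passed the adjusted p. It lay at 20.7, 24.5 and 36.5 FPKM in the controls and at 91.4, 516 and 514 in β-TCP (3.40 ± 0.68, adjusted p = 0.025, and 2.99 with the pair averaged). Msr1, a scavenger receptor, lay at 8.87, 7.45 and 9.28 FPKM in the controls and at 17.1, 60.3 and 62.4 in β-TCP (2.12 ± 0.40, adjusted p = 0.021). Itgam (the integrin chain CD11b) lay at 25.3, 21.4 and 10.2 FPKM in the controls and at 36.8, 106 and 106 in β-TCP (2.01 ± 0.42, adjusted p = 0.028). For all 3 genes replicate 1 lay between the controls and the pair. Vsig4, a complement receptor of resident macrophages, lay at 0.0464, 0.0933 and 0 FPKM in the controls and at 3.25, 7.81 and 9.64 in β-TCP (2.82 ± 0.31, adjusted p = 0.0044). Since its controls were near 0, the size of this difference depended on the pseudocount and was 5.49 with 0.1 FPKM in place of 1. Adgre1 (F4/80) lay at 7.89 to 22.1 FPKM in the controls and at 30.2 to 74.7 in β-TCP (1.78 ± 0.39, adjusted p = 0.033), whereas Cd163, a hemoglobin scavenger receptor, lay at 14.6, 20.6 and 3.78 FPKM in the controls and at 8.30, 6.54 and 5.93 in β-TCP and did not pass. Lyc2, a lysozyme with a near-identical paralog, lay at 5.61 to 16.0 FPKM in the controls and at 35.4 to 126 in β-TCP (2.70 ± 0.43, adjusted p = 0.014), and its share of the reads is uncertain.

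**Figure D2:**
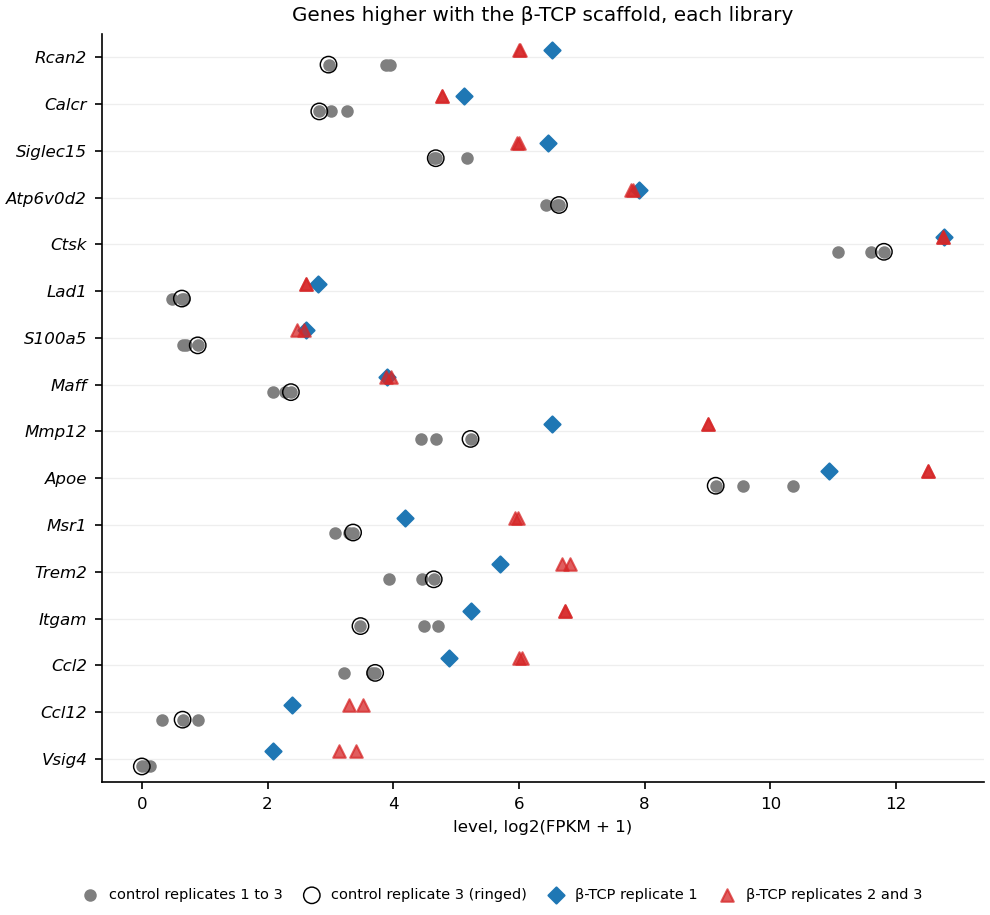
Level of 16 up-regulated genes in each library (x axis, log2 of FPKM + 1), with controls as grey circles (control replicate 3 ringed), β-TCP replicate 1 as a blue diamond and β-TCP replicates 2 and 3 as red triangles. From Rcan2 to Maff replicate 1 lies at or near the pair, whereas from Mmp12 to Vsig4 it lies between the controls and the pair.

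Many genes of lipid handling in macrophages rose as well. Of 19 members 12 were up-regulated and 0 down-regulated, with a median of 1.39, which was 0.80 in replicate 1 and 1.73 in the pair. Apoe, the lipoprotein that carries lipid out of macrophages, lay at 1320, 755 and 559 FPKM in the controls and at 1948, 5814 and 5800 in β-TCP (2.29 ± 0.51, adjusted p = 0.035). Gpnmb, a glycoprotein of lysosome-loaded macrophages and osteoclasts, lay at 302, 244 and 350 FPKM in the controls and at 732, 1373 and 1381 in β-TCP (1.91 ± 0.36, adjusted p = 0.021). Trem2, a lipid-sensing receptor that is also in the osteoclast list, lay at 20.9, 14.2 and 24.0 FPKM in the controls and at 51.1, 112 and 102 in β-TCP (2.06 ± 0.39, adjusted p = 0.021). For Apoe and Gpnmb the pair stood further above the controls than replicate 1 did. Lpl (lipoprotein lipase) lay at 18.8 to 49.0 FPKM in the controls and at 88.6 to 139 in β-TCP (1.81 ± 0.36, adjusted p = 0.025). With the pair averaged or without replicate 2 or 3, 0 of these genes passed the adjusted p, without control replicate 2 it was 4, and 11 passed the p and fold threshold with the pair averaged. The scavenger receptor Cd36, the nuclear receptor gene Pparg and Cd9 were among the 7 members that did not pass. Lipa and Npc2 stand in the list of lysosomal hydrolases as well, so the counts of these lists are not independent.

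Among 23 Fc, immunoglobulin-like and C-type lectin receptors of myeloid cells 11 rose and 0 fell (median 1.26), against 0 with the pair averaged and 1 without control replicate 2. Clec4e (Mincle) lay at 25.7, 13.4 and 6.61 FPKM in the controls and at 38.7, 79.4 and 75.4 in β-TCP (2.13 ± 0.40, adjusted p = 0.021). Clec7a (dectin-1, a receptor for fungal glucans) lay at 25.8, 20.5 and 9.13 FPKM in the controls and at 35.5, 93.1 and 91.1 in β-TCP (1.92 ± 0.40, adjusted p = 0.028). Clec4a differed from these in that replicate 1 lay near the pair, with 17.5, 13.8 and 11.6 FPKM in the controls and 41.6, 46.5 and 44.7 in β-TCP (1.58 ± 0.25, adjusted p = 0.013). Of 21 complement genes 5 rose and 0 fell, among them C1qa, at 119 to 145 FPKM in the controls and 225 to 355 in β-TCP (1.16 ± 0.19, adjusted p = 0.014), and C3ar1, the receptor for C3a, at 3.89 to 6.88 and 9.36 to 18.9 FPKM (1.36 ± 0.29, adjusted p = 0.030). With the pair averaged 1 complement gene passed, Vsig4, which is also in the macrophage list. Without control replicate 2 it was 3, and without control replicate 3 there were 5 higher and 1 lower.

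Several chemokines were up-regulated, among them attractants of monocytes. Of 23 chemokines 7 rose and 0 fell, with a median of 1.27, and 12 passed the p and fold threshold, against 10 with the pair averaged. The 7 adjusted calls became 0 with the pair averaged and 2 without control replicate 2, and without control replicate 3 there were 7 higher and 1 lower. The summed FPKM of the list overlapped between the groups, at 936, 616 and 171 in the controls and 719, 1129 and 1109 in β-TCP. Ccl2, the main monocyte attractant, lay at 11.7, 8.28 and 12.1 FPKM in the controls and at 28.7, 65.3 and 62.8 in β-TCP (2.12 ± 0.36, adjusted p = 0.016). Ccl12, a related ligand of the receptor CCR2, lay at 0.849, 0.244 and 0.568 FPKM in the controls and at 4.25, 10.5 and 8.85 in β-TCP (2.46 ± 0.36, adjusted p = 0.012). Ccl9 lay at 27.2, 16.1 and 13.3 FPKM in the controls and at 74.5, 144 and 143 in β-TCP (2.61 ± 0.50, adjusted p = 0.021). All 3 were in replicate 1 above every control and below the pair. Of 11 chemokine receptors 1 rose and 0 fell: Ccr1, at 15.8 to 30.1 FPKM in the controls and 45.9 to 47.9 in β-TCP (1.07 ± 0.23, adjusted p = 0.031).

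In other inflammatory lists few genes passed the adjusted p. Of 21 Toll-like receptors and adaptors 3 rose (median 0.42), Tlr2 among them at 5.93 to 13.9 FPKM in the controls and 14.7 to 36.1 in β-TCP (1.45 ± 0.34, adjusted p = 0.040, and 0.051 without control replicate 3). Of 17 cytokines and inflammatory enzymes 1 rose (Il18), of 21 interferon response genes 1 rose (Ifi27) and of 11 class II antigen presentation genes 0 rose, and 0 fell in these 4 lists. The medians of the last 3 were 0.63, 0.31 and 0.47. Without control replicate 3 the interferon median turned to -0.31, with 1 gene higher and 2 lower at the adjusted p, and the class II median was 0.15. Without control replicate 2 the interferon median was 0.57 and the class II median 0.44. Of 15 T cell and cytotoxic genes Cd4, which rat macrophages also express, was the 1 that rose, at 43.7 to 88.0 FPKM in the controls and 146 to 154 in β-TCP (1.22 ± 0.29, adjusted p = 0.041).

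Shown apart, β-TCP replicate 1 shared the direction of the pair in nearly all called genes, though not in every list. It lay outside the control range on the called side in 532 of the 533 up-regulated genes and in all 71 down-regulated ones, where over all genes it lay above the controls in 26.1% and below them in 9.06%. As the rule of the test required a small spread, this is a description and not a separate test. Among the 533 it was lower than both others in 335 genes (62.9%) and higher in 149 (28.0%), against 34.0% and 50.4% of all genes tested. Its median difference from the controls was 0.77, against 0.93 in the pair. Replicate 1 was more than 2-fold below the pair in 31 of the 533 and more than 2-fold above it in 0, against 175 and 151 of all 12633 genes tested.

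The lists differed in how replicate 1 compared with the pair. The osteoclast and proton pump medians were at least as high in replicate 1 as in the pair (1.01 and 0.86 for osteoclast genes). Of the 17 osteoclast genes 13 were higher in replicate 1 than in both others, as were 50.4% of all genes tested. The medians of macrophage, lipid handling, myeloid receptor and chemokine genes were lower in replicate 1, where the chemokine median was 0.39, against 1.46 in the pair. The erythroid median was 0.95 in replicate 1 and -0.32 in the pair, and the mitotic median 0.01 and -0.72. No test of this difference can be made, since it rests on 1 library set against 2 that were nearly identical.

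**Figure D3:**
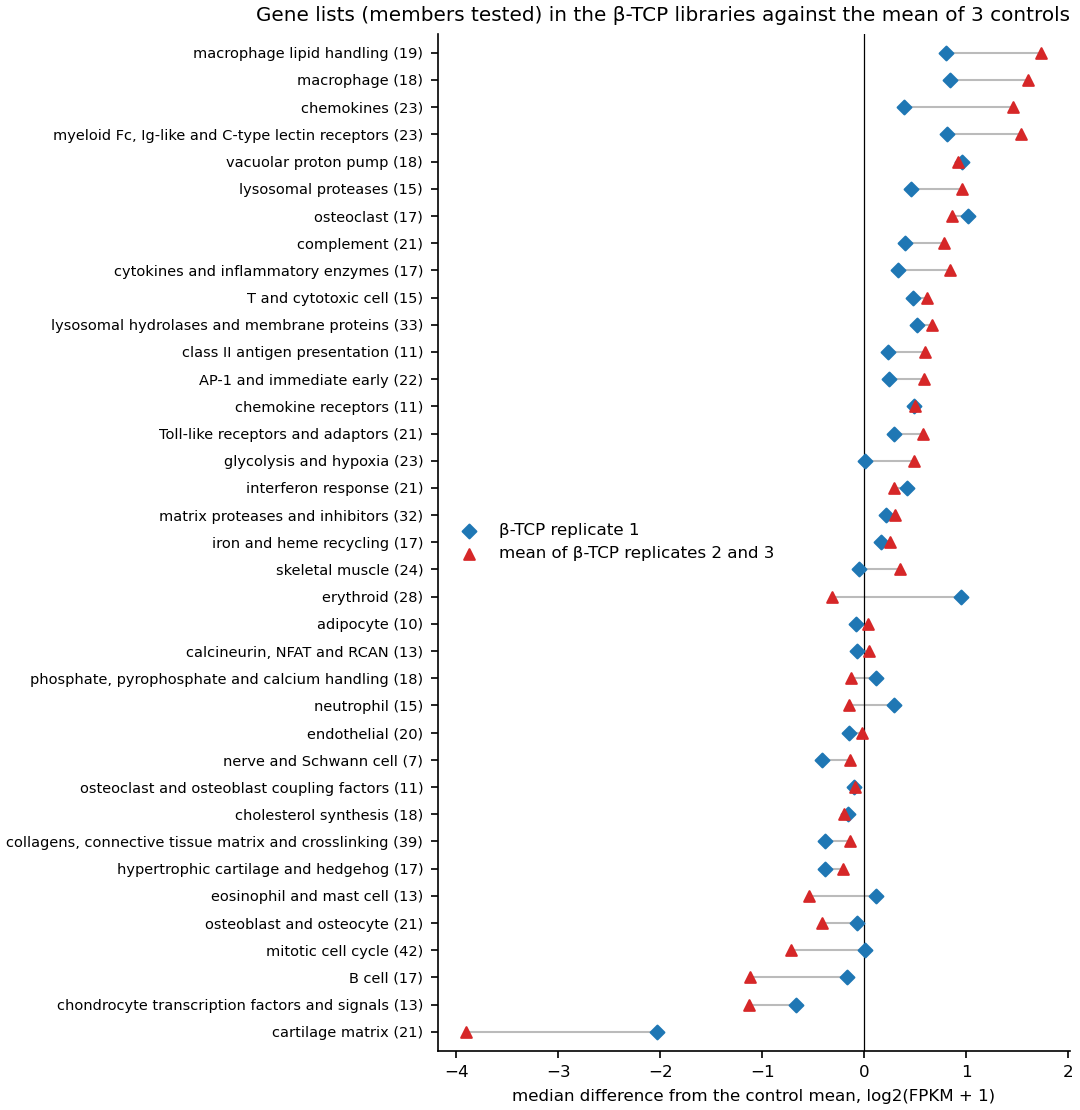
Median difference from the mean of the 3 controls (x axis, log2 of FPKM + 1) over the tested members of 37 gene lists, for β-TCP replicate 1 (blue diamonds) and the mean of β-TCP replicates 2 and 3 (red triangles). Osteoclast and proton pump genes lie close together in both, macrophage and chemokine genes are higher in the pair, erythroid genes lie on opposite sides of 0 and cartilage matrix genes are low in both.

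In 47 of the 314 genes higher at the p and fold threshold replicate 1 lay within the control range, so the call rested on the pair. The examples that follow were chosen after their values were seen. Arg1 (arginase 1, made by alternatively activated macrophages) lay at 1.22, 1.27 and 4.72 FPKM in the controls and at 2.93, 104 and 94.8 in β-TCP (3.47 ± 1.02, adjusted p = 0.082). Il1b (interleukin 1β) lay at 18.3, 11.8 and 2.15 FPKM in the controls and at 16.2, 74.8 and 81.9 in β-TCP (2.37 ± 0.68, adjusted p = 0.074). Cxcl3, a neutrophil attractant, lay at 0.290, 1.41 and 0.155 FPKM in the controls and at 0.595, 19.3 and 20.4 in β-TCP (2.53 ± 0.81, adjusted p = 0.11). None of the 3 passed the adjusted p, and replicate 1 overlapped the controls in each. The inhibitory Fc receptor gene Fcgr2b was of the same kind, at 4.68 to 15.5 FPKM in the controls, 14.2 in replicate 1 and 119 to 121 in the pair.

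Immediate early genes rose in part. Of 22 AP-1 and immediate early genes 4 rose and 1 fell (median 0.47). Besides Maff, Junb, a subunit of AP-1, lay at 45.7, 32.1 and 49.5 FPKM in the controls and at 73.3, 89.0 and 85.4 in β-TCP (0.96 ± 0.22, adjusted p = 0.036), and Egr2 lay at 0.717 to 1.18 and 1.92 to 3.13 FPKM (0.89 ± 0.22, adjusted p = 0.043, and 0.056 without control replicate 3). Fos lay at 18.6, 16.9 and 16.5 FPKM in the controls and at 45.8, 49.2 and 50.3 in β-TCP, without overlap, and did not pass (1.43 ± 0.38, adjusted p = 0.058). Klf2, a transcription factor that quiets endothelium and monocytes, was lower in every β-TCP library, at 45.7 to 53.3 FPKM in the controls and 24.2 to 28.2 in β-TCP (-0.88 ± 0.19, adjusted p = 0.032).

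Promoter sequences are shown for 4 of 5 up-regulated named genes found to hold the motif TGANTCA in this stretch (C3ar1, with the motif 72 bases before its start, is left out for length). TGANTCA is a loose pattern for the AP-1 site, since N is any base, whereas the AP-1 consensus has C or G there. In Ccl7 the base is T, so its match is not the consensus. The motif was chosen since AP-1 subunits were among the genes that rose. The motif reads the same on both strands. The sequences are the 250 bases before the annotated start, from RefSeq on the build GRCr8, which is not the build of the files. The motif is in capitals, and its first base lies 87, 87, 73 and 142 bases before the start in the order given.
Mmp12, chr8:12866402-12866651, plus strand: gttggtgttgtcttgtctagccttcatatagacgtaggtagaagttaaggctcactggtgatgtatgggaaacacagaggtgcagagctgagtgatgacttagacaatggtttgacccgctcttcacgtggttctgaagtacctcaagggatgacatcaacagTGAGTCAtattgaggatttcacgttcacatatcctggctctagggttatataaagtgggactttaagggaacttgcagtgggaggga
Gpnmb, chr4:79340878-79341127, plus strand: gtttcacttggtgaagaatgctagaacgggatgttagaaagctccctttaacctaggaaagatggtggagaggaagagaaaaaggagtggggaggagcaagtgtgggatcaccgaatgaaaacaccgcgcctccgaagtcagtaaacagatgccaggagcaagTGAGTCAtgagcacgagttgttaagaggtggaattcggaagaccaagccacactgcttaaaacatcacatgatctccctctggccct
Ccl7, chr10:67513845-67514094, plus strand: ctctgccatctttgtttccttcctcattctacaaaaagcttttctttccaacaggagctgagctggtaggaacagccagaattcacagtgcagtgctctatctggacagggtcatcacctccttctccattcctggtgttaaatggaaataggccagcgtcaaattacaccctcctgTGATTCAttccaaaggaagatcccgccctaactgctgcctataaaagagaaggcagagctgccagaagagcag
Rcan1, chr11:45118237-45118486, minus strand: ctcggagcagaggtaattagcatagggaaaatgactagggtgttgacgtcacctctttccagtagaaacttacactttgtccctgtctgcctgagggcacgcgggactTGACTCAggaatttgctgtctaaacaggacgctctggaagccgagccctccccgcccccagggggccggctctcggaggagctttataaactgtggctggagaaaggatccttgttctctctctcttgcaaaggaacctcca

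Ccl7, a further monocyte attractant, lay at 1.62, 2.53 and 2.51 FPKM in the controls and at 6.35, 15.9 and 15.4 in β-TCP (1.99 ± 0.44, adjusted p = 0.035). A promoter of 300 bases (250 before to 50 after the start) was at hand for 10182 of the 12633 genes tested and for 436 of the 533 up-regulated ones. TGANTCA was in 502 of all these promoters (4.93%) and in 39 of those of up-regulated genes (8.94%). GAGGAA, the core bound by the macrophage factor PU.1, was on either strand in 2782 (27.3%) and in 150 (34.4%), and CACGTG, the E-box read by lysosomal regulators of the MiT family, in 944 (9.27%) and in 46 (10.6%). For the down-regulated genes 54 of 71 promoters were at hand, with TGANTCA in 4 (7.41%), GAGGAA in 12 (22.2%) and CACGTG in 1 (1.85%). The share with TGANTCA was thus above that of all genes in the up-regulated genes, whereas 54 promoters of down-regulated genes are too few for such a comparison. The 3 motifs were counted separately, no test was made, and a match shows letters and not binding.

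Few energy, ion and lipid synthesis genes passed the adjusted p. Of 23 glycolysis and hypoxia genes 3 rose and 0 fell (median 0.36). Hk3, the hexokinase of myeloid cells, lay at 3.68, 4.48 and 2.39 FPKM in the controls and at 7.27, 23.4 and 21.2 in β-TCP (1.90 ± 0.37, adjusted p = 0.023), and Aldoa (aldolase A) lay at 178 to 211 FPKM in the controls and at 255 to 353 in β-TCP (0.69 ± 0.14, adjusted p = 0.028). Of 18 genes for phosphate, pyrophosphate and calcium handling 3 rose and 0 fell, with a median of -0.03. Beside Calcr they were the calcium export pump genes, Atp2b1 with a difference of 0.39 ± 0.10 (adjusted p = 0.044) and Atp2b4 with one of 0.67 ± 0.15 (adjusted p = 0.032). Of 17 iron and heme recycling genes 0 rose and 1 fell: Slc40a1 (ferroportin, the iron exporter), at 7.54, 8.28 and 7.23 FPKM in the controls and 4.83, 3.04 and 3.45 in β-TCP (-0.88 ± 0.15, adjusted p = 0.016). Of 18 cholesterol synthesis genes 1 rose, the feedback regulator Insig1 (0.85 ± 0.15, adjusted p = 0.020), and 0 fell.

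Many cartilage genes were lower with the β-TCP scaffold, from levels that differed widely among the controls. Of 21 cartilage matrix genes 9 fell and 0 rose at the adjusted p, 18 were lower at the p and fold threshold and 18 had all β-TCP libraries below all controls, with a median of -3.36. The median was -2.03 in replicate 1 and -3.90 in the pair. Without control replicate 3, in which these genes were highest, 6 fell at the adjusted p, 17 were lower at the p and fold threshold and the median was -2.39. Without control replicate 1 or 2 the adjusted calls were 5 and 3, without β-TCP replicate 1 they were 14, and with the pair averaged 0 fell and 18 were lower at the p and fold threshold.

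Acan (aggrecan, the main cartilage proteoglycan) lay at 152, 118 and 811 FPKM in the controls and at 49.5, 18.6 and 19.5 in β-TCP, a difference of -3.17 ± 0.69 (adjusted p = 0.032, and -2.30 without control replicate 3). Comp, a collagen-bridging protein of cartilage and tendon, lay at 168, 123 and 885 FPKM in the controls and at 57.0, 6.23 and 5.99 in β-TCP (-4.21 ± 1.05, adjusted p = 0.048, and 0.062 without control replicate 3). Hapln1, the link protein that ties aggrecan to hyaluronan, lay at 97.2, 96.1 and 607 FPKM in the controls and at 40.9, 5.54 and 5.32 in β-TCP (-3.90 ± 0.95, adjusted p = 0.045, and 0.056 without control replicate 3). In each of these the order was control replicate 3, the other controls, β-TCP replicate 1 and the pair, with no overlap between the groups. Matn3 (matrilin 3) lay at 30.4, 19.1 and 188 FPKM in the controls and at 9.06, 2.15 and 2.45 in β-TCP (-3.36 ± 0.83, adjusted p = 0.046), and Ucma, a small protein of the growth plate, lay at 22.2, 11.6 and 46.1 and at 4.65, 0.0918 and 0.135 FPKM (-3.65 ± 0.84, adjusted p = 0.038, and 0.052 without control replicate 3). Col2a1, the defining collagen chain of cartilage, lay at 1298, 1370 and 9071 FPKM in the controls and at 526, 46.7 and 46.5 in β-TCP and did not pass (-4.58 ± 1.27, adjusted p = 0.068).

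**Figure D4:**
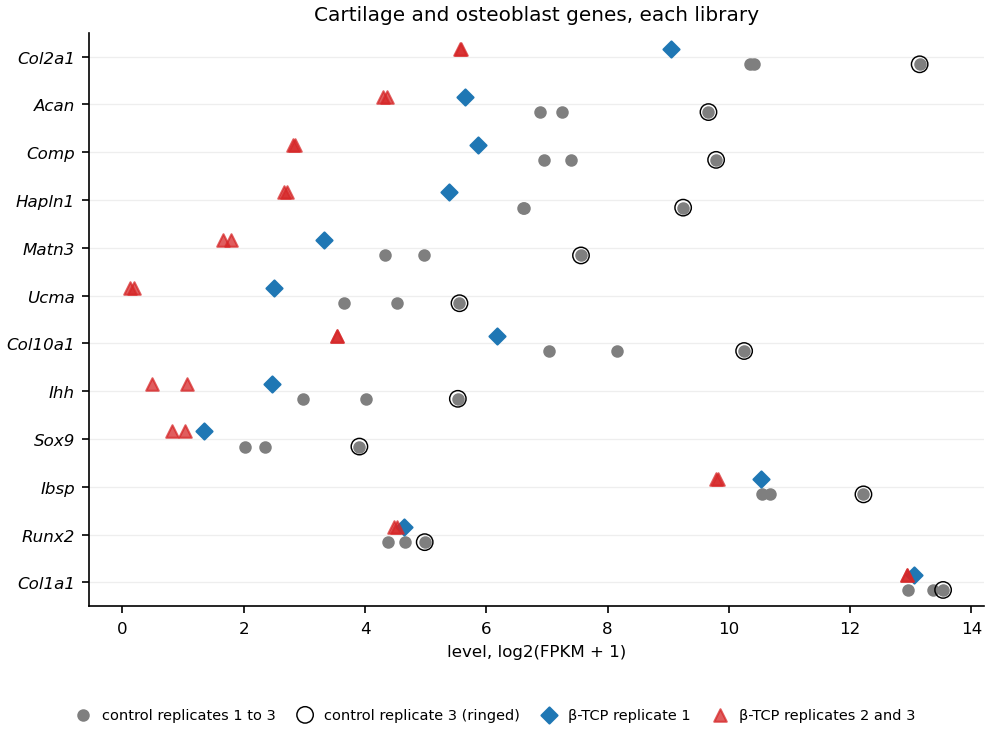
Level of 9 cartilage and 3 osteoblast genes in each library (x axis, log2 of FPKM + 1), with controls as grey circles (control replicate 3 ringed), β-TCP replicate 1 as a blue diamond and β-TCP replicates 2 and 3 as red triangles. For the genes from Col2a1 to Sox9 control replicate 3 is highest, the pair is lowest and replicate 1 lies between, whereas Runx2 and Col1a1 overlap between the groups.

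Some regulators of cartilage fell. Of 13 chondrocyte transcription factors and signals 3 fell and 0 rose (median -0.97), against 0 with the pair averaged and 1 without control replicate 2, and 11 had all β-TCP libraries below all controls. Sox9, the transcription factor that specifies chondrocytes, lay at 4.08, 3.06 and 14.0 FPKM in the controls and at 1.53, 0.764 and 1.04 in β-TCP (-1.70 ± 0.39, adjusted p = 0.039). Gdf10, a growth factor of the bone morphogenetic protein family, fell without control replicate 3 standing out, at 1.40, 2.54 and 1.45 FPKM in the controls and at 0.454, 0.140 and 0.165 in β-TCP (-1.14 ± 0.20, adjusted p = 0.016). Fzd9, a Wnt receptor, was the third of these (-1.63 ± 0.38, adjusted p = 0.040).

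Of 17 genes of hypertrophic cartilage and hedgehog signalling 2 fell and 0 rose (median -0.28). Col10a1, the collagen of hypertrophic chondrocytes, lay at 130, 284 and 1219 FPKM in the controls and at 71.1, 10.6 and 10.6 in β-TCP (-4.07 ± 0.93, adjusted p = 0.038). Ihh (Indian hedgehog, the ligand they secrete) lay at 6.84, 15.3 and 45.3 FPKM in the controls and at 4.53, 1.09 and 0.399 in β-TCP (-2.84 ± 0.61, adjusted p = 0.031). The hedgehog targets Ptch1 and Gli1 did not pass the adjusted p and were lower at the p and fold threshold, with differences of -1.48 and -1.14. Among other down-regulated genes, Cd24, a surface protein of B cell precursors and other progenitors, lay at 115, 249 and 113 FPKM in the controls and at 56.4, 11.3 and 11.2 in β-TCP (-2.86 ± 0.69, adjusted p = 0.042), and Moxd1, a monooxygenase, at 3.50, 2.85 and 11.9 and at 0.887, 0.141 and 0.119 FPKM (-2.18 ± 0.40, adjusted p = 0.020).

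No osteoblast or osteocyte gene passed the adjusted p: of 21 members 0 rose and 0 fell (limma), 2 were lower at the p and fold threshold, and the median was -0.35. Ibsp (bone sialoprotein) lay at 1631, 1497 and 4771 FPKM in the controls and at 1482, 900 and 885 in β-TCP (-1.10 ± 0.48, adjusted p = 0.26, and -0.56 without control replicate 3). Smpd3, a sphingomyelinase needed for mineralization, was the other, at 40.3, 41.7 and 107 FPKM in the controls and 29.9, 25.3 and 23.6 in β-TCP (-1.09 ± 0.36, adjusted p = 0.12, and -0.63 without control replicate 3). Runx2, the master factor of osteoblasts, lay at 24.2, 19.9 and 30.7 FPKM in the controls and at 24.0, 21.4 and 22.1 in β-TCP, and the groups overlapped. Of 39 collagens and other connective tissue genes 0 rose and 0 fell at the adjusted p, and 1 was higher at the p and fold threshold.

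Of 32 matrix proteases and inhibitors Mmp12 and Cstb (cystatin B, an inhibitor of cathepsins) were the 2 that rose, and 0 fell. Cstb lay at 248, 197 and 264 FPKM in the controls and at 471, 520 and 525 in β-TCP (1.10 ± 0.21, adjusted p = 0.021). Of 20 endothelial genes 0 rose and Erg, a transcription factor of endothelium and chondrocytes, fell (-0.68 ± 0.17, adjusted p = 0.0497, and 0.056 without control replicate 3). Of 24 skeletal muscle genes 0 rose at the adjusted p, with a median of 0.23, which was -0.05 in replicate 1 and 0.35 in the pair. The summed FPKM of this list overlapped between the groups, at 54.5, 39.9 and 63.9 in the controls and 36.8, 78.8 and 78.4 in β-TCP. Myl3, a myosin light chain of slow muscle and heart, was the 1 that fell (-1.73 ± 0.38, adjusted p = 0.032, and -1.21 without control replicate 3). Of 10 adipocyte genes Lpl was the 1 that rose and 0 fell.

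Markers of blood and marrow varied widely among the controls, and none of their lists held a gene past the adjusted p. Of 28 erythroid genes 0 rose and 0 fell, with a median of 0.14, which was 0.95 in replicate 1 and -0.32 in the pair. Replicate 1 was above the pair in 28 of 28 erythroid genes, against 50.4% of all genes tested. Their summed FPKM was 11910, 21820 and 1411 in the controls and 12930, 5531 and 5731 in β-TCP. The β-TCP libraries lay within the control range. Of 17 B cell genes 0 rose and 0 fell (median -0.88), and their summed FPKM was 445, 851 and 38.3 in the controls and 236, 105 and 106 in β-TCP. Of 15 neutrophil genes 0 rose and 0 fell, and S100a9 lay at 1271, 1439 and 19.1 FPKM in the controls and at 647, 470 and 457 in β-TCP. Of 42 mitotic cell cycle genes 0 rose and 0 fell (median -0.47), and replicate 1 was above the pair in 42 of 42. With control replicate 3 left out, 13 B cell, 6 mitotic and 4 neutrophil genes fell at the adjusted p, and 18 erythroid and 32 mitotic genes were lower at the p and fold threshold. With control replicate 2 left out instead, 0 genes of these lists passed either threshold, and the medians moved up. They came to -0.02 (B cell), 0.05 (mitotic), 0.48 (neutrophil) and 1.01 (erythroid), so the direction depended on which control was left out. Of 13 eosinophil and mast cell genes 0 rose and 0 fell, and 5 fell without control replicate 3 and 0 without control replicate 2. Of 7 nerve and Schwann cell genes 0 rose, and S100b and Ncmap fell, with a median over the list of -0.07. The summed FPKM of this list was highest in control replicate 3, at 217 against 69.9 and 55.5 in the other controls. S100b differed by -2.69, and by -1.88 without control replicate 3. The part of marrow content in the gene groups above was not tested.

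**Figure D5:**
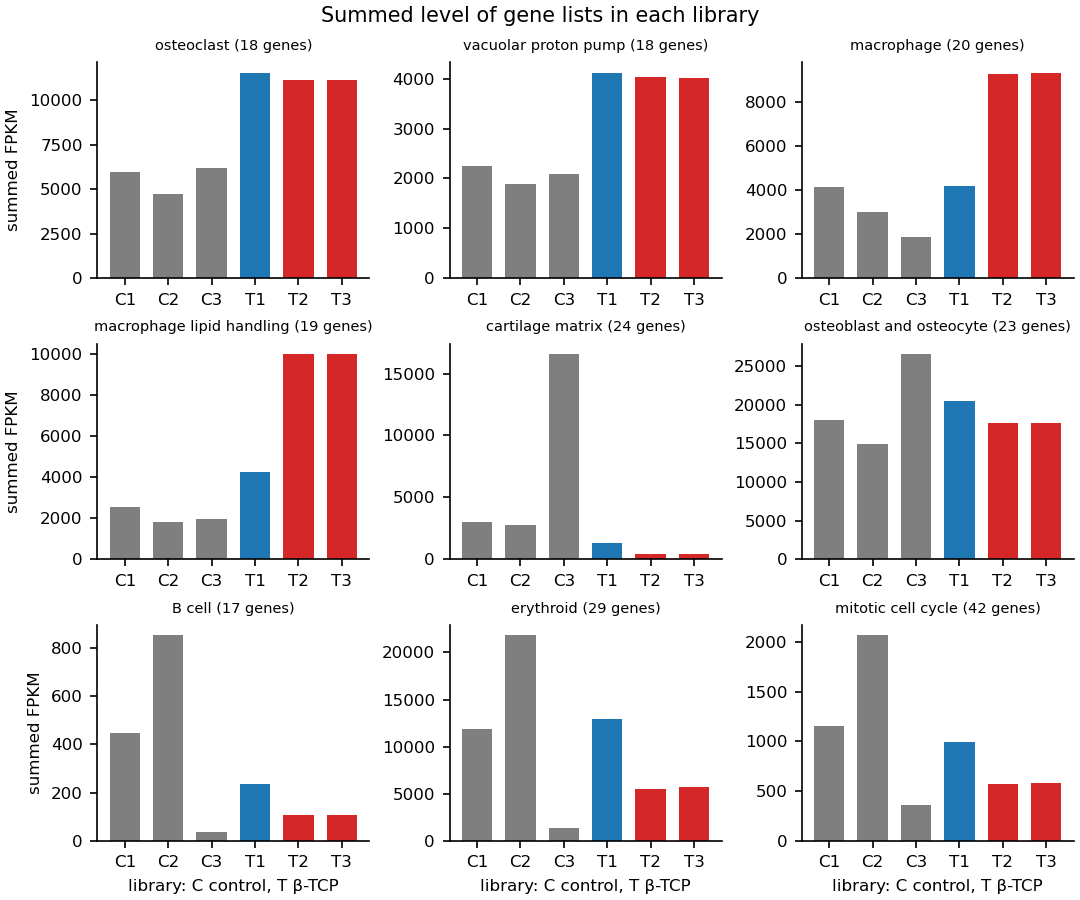
Summed FPKM of 9 gene lists (bars, y axis from 0) in the control libraries C1 to C3 (grey), β-TCP replicate 1 (T1, blue) and β-TCP replicates 2 and 3 (T2 and T3, red). Osteoclast and proton pump sums are high in all β-TCP libraries, macrophage sums are high in T2 and T3, the cartilage sum of C3 is 16580 against 399.8 in T3, and erythroid, B cell and mitotic sums are lowest in C3.

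Compared with the other scaffolds, the β-TCP group had 72 genes higher (0.57%) and 11 lower (0.0871%) than PCL, and 653 higher (5.17%) and 122 lower (0.966%) than the hydrogel, at an adjusted p under 0.05. With the pair averaged these counts were 2, 0, 16 and 0. The comparisons share the β-TCP libraries with the comparison above and are given for named genes side by side. Of the 17 osteoclast genes 2 were higher in β-TCP than in PCL and 15 than in the hydrogel, and of the 18 proton pump genes 4 and 15, with 0 lower in each case. With the pair averaged these became 0 and 0 osteoclast genes and 0 and 1 proton pump genes.

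Rcan2 averaged 17.5 ± 6.16 FPKM (SD, n = 3) in PCL and 20.3 ± 5.07 in hydrogel, and was higher in β-TCP than in either, by 2.02 (adjusted p = 0.035) and 1.80 (adjusted p = 0.015). Calcr averaged 11.2 ± 3.28 FPKM in PCL and 9.11 ± 3.08 in hydrogel (β-TCP higher by 1.32, adjusted p = 0.048, and by 1.60, adjusted p = 0.010). Lad1, S100a5 and Maff were also higher in β-TCP than in both, with S100a5 at 0.345 ± 0.288 FPKM in PCL and 0.327 ± 0.307 in hydrogel (differences of 2.15 and 2.17, adjusted p = 0.0028 and 0.0019). With the pair averaged S100a5 kept its call against both (adjusted p = 0.021 and 0.019) and Maff against hydrogel (adjusted p = 0.030, and 0.077 against PCL), whereas Rcan2, Calcr and Lad1 lost theirs against both, with adjusted p from 0.077 to 0.18 against PCL and from 0.051 to 0.066 against hydrogel.

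For some macrophage and lipid genes the mean in PCL was no lower than in β-TCP. Mmp12 averaged 573 ± 249 FPKM in PCL and 23.4 ± 18.7 in hydrogel, and β-TCP differed from hydrogel (3.84, adjusted p = 0.015) and not detectably from PCL (-0.89, adjusted p = 0.44). Gpnmb averaged 1231 ± 347 FPKM in PCL and 294 ± 138 in hydrogel (differences of -0.105, adjusted p = 0.87, and 2.03, adjusted p = 0.015), and Lpl 242 ± 88.5 and 38.2 ± 8.65 FPKM (-0.97, adjusted p = 0.17, and 1.63, adjusted p = 0.031). Of the 19 lipid handling genes 0 were higher in β-TCP than in PCL and 7 than in hydrogel, and with the pair averaged 0 than in either. Ccl12 and Vsig4, in contrast, were higher in β-TCP than in PCL (2.03, adjusted p = 0.044, and 1.96, adjusted p = 0.035), which neither was with the pair averaged (adjusted p = 0.20 and 0.15). Against hydrogel Mmp12, Gpnmb and Lpl also lost their calls then (adjusted p from 0.079 to 0.14).

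No cartilage matrix gene differed detectably between β-TCP and the other scaffolds, and 1 of the 13 chondrocyte factors and signals, Gdf10, was lower in β-TCP than in hydrogel. Acan averaged 20.1 ± 4.87 FPKM in PCL and 22.5 ± 13.6 in hydrogel, and β-TCP differed from neither detectably (0.40, adjusted p = 0.74, and 0.37, adjusted p = 0.71). Of the 21 cartilage matrix genes 0 differed between β-TCP and PCL or hydrogel at the adjusted p (limma), and the median differences were 0.28 and 0.11. Cd24 and Gdf10, in contrast, were lower in β-TCP than in hydrogel, with differences of -3.18 (adjusted p = 0.027) and -1.20 (adjusted p = 0.012), and not detectably different from PCL (adjusted p = 0.21 and 0.17). The differences from hydrogel did not pass with the pair averaged (adjusted p = 0.13 and 0.067).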

How the data were processed

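Tissue RNA of 12 rat libraries was sequenced, 3 each of 4 groups, and groups were taken from the sample labels. The authors deposited FPKM values for 22601 genes. The tools in the submitters' processing notes are Bowtie, Cufflinks, DESeq, HISAT2, HTSeq, StringTie and Trimmomatic, and the build is Rnor_6.0, all without versions. The labels and the methods of the study name different RNA and library kits and sequencers, and which of them applied is unknown. Another 3 value columns match no sample label and were not used.

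The 12633 genes that reached 1 FPKM in 3 or more libraries were tested on log2(FPKM + 1) with limma 3.58.1 in R 4.3.3, with 4 group means over all 12 libraries, a mean-variance trend, two-sided tests and Benjamini-Hochberg adjustment over all genes tested. The code was tested on simulated data. Whole fragment numbers could be recovered from the steps of the FPKM values for 18684 of 18684 genes above 0, within a tolerance of 0.01, and gave the depths, the comparison of replicates and a limma-voom alternative. How reads shared by near-identical genes were counted is not given in the sources used here.

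The members, gene lists and tests were chosen with earlier results of these data known. The 37 lists hold 776 symbols, of which 769 matched by symbol, 3 by synonym and 4 did not. Genes in more than 1 list, among them Ctsk, Tyrobp, Lipa, Npc2, Csf1r, Fcgr1a and Siglec1, were counted in each. The counts of such lists are not independent. Genes named were the 20 higher and 20 lower with the largest change at the adjusted p, without overlap between groups and without locus-number symbols, up to 4 members of each list, or, where none passed, up to 3 at p and fold or the 2 with the highest mean, and genes of the study's topic. Not all were printed. Genes outside this rule, among them Acp5, Ctsk as an osteoclast gene, Nfatc1, Car2, Cd163, Fcgr2b, Cxcl3, Bglap and Col1a1, were chosen as markers or after their values were seen. Promoters came from RefSeq tables. Alternatives changed the pseudocount, filter, scaling, samples, weights, trend and replicate handling.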

Additional observations from a re-analysis of the deposited data

How the results depend on the processing

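No fold change of the 105 genes examined changed direction under the alternatives tried. Most of these genes had passed the adjusted p in the same data, so a steady direction is a description and not a test. Without control replicate 3 some list medians did change direction, the erythroid from 0.14 to -1.31 and the interferon from 0.31 to -0.31. Without control replicate 2 the mitotic median changed direction, from -0.47 to 0.05, as did the neutrophil median, from -0.05 to 0.48. The number of calls changed, and lower genes outnumbered higher ones with library weights. At p and fold they also did so without control replicate 3 (295 higher and 512 lower). Against 533 higher and 71 lower genes at the adjusted p, quantile normalization gave 341 higher, fitting only the 2 groups compared gave 120 and 4, averaging β-TCP replicates 2 and 3 gave 11 and 0, and limma-voom gave 38 lower. Library weights gave 3634 and 4912, with 442 lower at p and fold, in a fit that did not converge. Leaving out 1 library gave 11 to 681 higher and 0 to 669 lower genes. At p and fold, against 314 and 130, a pseudocount of 5 gave 154 and 60, at least 5 FPKM gave 82 lower, and leaving out 1 library gave 256 to 465 and 114 to 512. The 83 calls against PCL became 38 with a pseudocount of 0.1, 42 with at least 5 FPKM, 50 with median-of-ratios scaling, 2189 with 2 groups, 2 with the pair averaged, 6859 with weights, 45 with limma-voom and 2 to 1912 with 1 library left out. The 775 against the hydrogel became 1341 with median-of-ratios scaling, 1538 with quantile normalization, 4251 with 2 groups, 16 with the pair averaged, 7445 with weights and 7 to 4736 with 1 library left out. The cause was not tested.

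The replicate block gave 300 higher and 22 lower genes, 45 calls against PCL and 360 against the hydrogel. Same-numbered samples correlated at 0.053, -0.364 and 0.283 in their deviations from the group means. With 3 samples a group and 2 nearly identical β-TCP samples, this cannot decide whether same-numbered samples were paired. Of the 105 genes, 81 lost their call with the pair averaged, 63 without control replicate 2, 62 with 2 groups and 37 with the block. With 3 libraries a group, of which 2 were nearly identical, the spread of the β-TCP group is poorly known, and levels under 1 FPKM rest on few fragments.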
